A study of Homo sapiens with 6 samples.

Results

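The 9 enzymes described here make and use glutamine, glutamate, aspartate, alanine, asparagine and proline. They are glutamine synthetase (GLUL), glutamate dehydrogenase (GLUD1), the aspartate aminotransferases GOT1 and GOT2, the alanine aminotransferase GPT2, asparagine synthetase (ASNS), and the proline pathway enzymes ALDH18A1, PYCR1 and OAT. They were chosen by name from the 60668 genes of the table, and all 9 were found by their Ensembl identifiers and passed the filter on low values. MiaPaCa-2, an established human line of pancreatic ductal adenocarcinoma (PDAC) from ATCC, was kept for 48 h in 2.5 mM glucose (low glucose, 3 libraries) or in 25 mM glucose (control, 3 libraries). No other agent or allele is named as differing between the conditions. The series' design text calls the replicates independent biological ones, and 2.5 mM stands in the treatment text of every sample, although titles and design text set the controls apart. The labels name the table columns of 2 low-glucose libraries, and the other 4 columns were assigned because their names form a run of 3 for each condition. According to the methods, the low-glucose medium was a glucose-free DMEM to which glucose, serum and antibiotics were added, and the standard medium held glutamine. Whether both media of the RNA-seq experiment held the same amounts of glutamine, methionine and cystine is not stated in the sources used here. The effects of glucose and of any such difference cannot be told apart, for the 9 enzymes and for carriers such as SLC7A11 and SLC3A2 alike.

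In these pathways glutaminase releases the amide nitrogen of glutamine and leaves glutamate, which glutamate dehydrogenase or the aminotransferases turn into α-ketoglutarate. The aminotransferases hand the nitrogen of glutamate to oxaloacetate or pyruvate, which gives aspartate or alanine, and asparagine synthetase uses glutamine to amidate aspartate. Glutamate, through ALDH18A1, and ornithine, through OAT, both feed pyrroline-5-carboxylate (P5C), which PYCR1 reduces to proline with NAD(P)H. PDAC cells are known for a cytosolic route in which aspartate made by GOT2 in mitochondria is used by GOT1 in the cytosol. ASNS is a classical target of ATF4, the transcription factor of the amino acid and ER stress responses. DMEM contains no asparagine, aspartate, glutamate, alanine or proline beyond what serum brings.

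Levels are given as normalized counts, that is, reads on a gene divided by 1 size factor per library. The control libraries held 9741183 to 10190154 reads on genes and the low-glucose libraries 10595408 to 13733477. No 2 replicates of a condition agreed within counting error (chi-square per gene of 1.90 to 18.9, where counting error alone gives about 1), and the widest spread was among the controls. Mitochondrially encoded genes took 2.47% to 3.82% of the control reads and 4.65% to 5.12% of the low-glucose reads. The part of this share in the results was not tested. KRT8, KRT18, KRT19, VIM and S100A4, fixed as markers of a carcinoma line, all had at least 1725 reads in every library. The acinar markers PRSS1, CPA1, CELA3A and AMY2A had none. The summed level of 4 fibroblast markers was 1.53 to 1.99 TPM (a level per exon length, scaled to the library total) in control and 0.344 to 0.841 in low glucose, with DCN at 0, and that of 4 leukocyte markers was at most 3.18 TPM, with PTPRC and CD3E at 0. Conditions were compared on log2(normalized count + 1) with limma's moderated test (two-sided, 21101 genes, Benjamini-Hochberg adjustment, threshold 0.05), which measures relative level in the RNA pool. Fewer cells with a transcript and less of it per cell cannot be told apart in these bulk samples.

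Under low glucose, 4 of the 9 enzymes rose (ASNS, GPT2, PYCR1 and GOT1), 2 fell (GOT2 and ALDH18A1), and 3 did not pass the test (GLUL, GLUD1 and OAT). Of all genes tested, 30.9% passed in either direction, 14.7% of all genes being higher and 16.2% lower in low glucose. With scaling by library size, 3935 genes were higher and 2647 lower, in place of 3111 and 3417. With a log2 fold change of 1 or more in size also required, 1 of the 9 remained (ASNS), against 6.6% of all genes. The 15 alternatives named in the following, 9 with all libraries and 6 that omit 1 library, keep the threshold of 0.05 and set no minimum fold change. The median log2 fold change of the 9 was 0.24, against 0.05 over all genes tested. The 3 low-glucose values did not overlap the 3 control values for 7 of the 9, against 43.9% of all genes tested. The shares over all genes were not matched for level, and they include many genes with far fewer reads than most of the 9. By compartment, 2 of the 3 cytosolic enzymes rose and none fell, whereas 2 of the 6 mitochondrial enzymes rose and 2 fell.

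**Figure D1:**
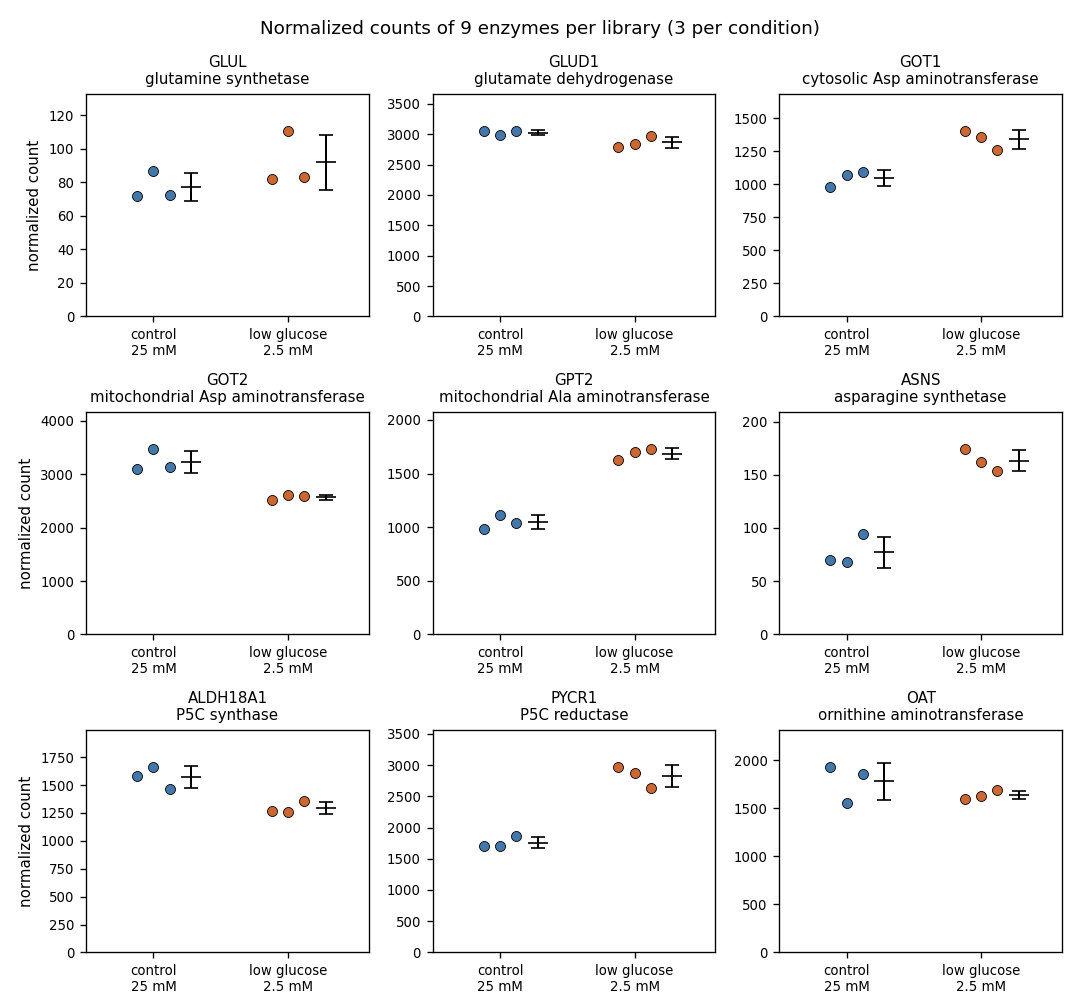
Normalized counts (linear axis from 0) of the 9 enzymes in each of the 3 control and 3 low-glucose libraries. Points are libraries, and the bar beside them is the mean with its SD. The low-glucose points lie above all control points for ASNS, GPT2, PYCR1 and GOT1, and below them for GOT2, ALDH18A1 and GLUD1.

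Promoter windows of RefSeq (GRCh38.p14, 250 bases before to 50 bases after the start site) were present for 7 of the 9 enzymes, in 9 windows. GPT2 and PYCR1 had none. The motifs searched on both strands were TGATGNAA, the core of the C/EBP-ATF element that ATF4 binds, the E-box CACGTG, and the ER stress response element ERSE. TGATGNAA was found in ASNS and GOT1, 68 to 61 bases and 198 to 191 bases before the start site, and in 3.62% of the 35116 promoters of the same length. CACGTG was found in ALDH18A1 and in 7.26% of all promoters, and ERSE in none of the 9 windows and in 0.0769% of all promoters. Of the 3 genes with a match, 2 rose and 1 fell, and the window of GOT2, which also fell, held none. The 250 bases before the start site of these 3 genes are shown because they held a match. They lie at chr7:97872409-97872658 (ASNS), chr10:99430625-99430874 (GOT1) and chr10:95656712-95656961 (ALDH18A1), all on the minus strand, and capitals mark the motif.
ASNS: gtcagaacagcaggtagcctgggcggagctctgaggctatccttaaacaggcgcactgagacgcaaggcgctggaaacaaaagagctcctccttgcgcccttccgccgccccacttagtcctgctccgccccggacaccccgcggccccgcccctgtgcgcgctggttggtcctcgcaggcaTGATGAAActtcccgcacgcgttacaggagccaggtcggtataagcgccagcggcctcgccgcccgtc
GOT1: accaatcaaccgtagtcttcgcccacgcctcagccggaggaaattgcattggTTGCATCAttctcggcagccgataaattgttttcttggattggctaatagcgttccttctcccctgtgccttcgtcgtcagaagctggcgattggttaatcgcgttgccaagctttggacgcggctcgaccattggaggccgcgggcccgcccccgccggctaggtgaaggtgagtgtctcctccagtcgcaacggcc
ALDH18A1: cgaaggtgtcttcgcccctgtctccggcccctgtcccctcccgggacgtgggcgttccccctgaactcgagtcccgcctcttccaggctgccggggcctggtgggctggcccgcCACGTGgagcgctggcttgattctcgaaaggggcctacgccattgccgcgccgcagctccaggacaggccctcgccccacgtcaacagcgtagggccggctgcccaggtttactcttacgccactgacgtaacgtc
A match here is a sequence description only. The second windows of ASNS and of GLUL held no match.

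GLUL (ENSG00000135821.18, chromosome 1 of hg38, 182378098 to 182392206), which joins ammonia to glutamate, was the lowest of the 9 per exon length. Its mean normalized count in control, 77.1, was close to the 77.2 of ASNS. By library, the normalized count of GLUL was 71.7, 86.9 and 72.8 in control and 81.8, 111 and 83.3 in low glucose, so that the conditions overlapped. Behind these values lie only 64 to 112 reads per library. The log2 fold change was 0.24 (95% interval -0.13 to 0.61, limma adjusted p = 0.322). The interval leaves room for a rise of up to 0.61, and GLUL did not pass in any of the 15 alternatives.

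GLUD1 (ENSG00000148672.9, chromosome 10, 87050202 to 87094843), the mitochondrial enzyme that oxidizes glutamate to α-ketoglutarate, did not pass the test. It had 3050, 2982 and 3048 normalized counts in control and 2784, 2835 and 2969 in low glucose. All 3 low-glucose values were lower, but by a log2 fold change of only -0.08 (95% interval -0.23 to 0.07, limma adjusted p = 0.425). After quantile normalization the value was 0.078. SHLD2, a gene on the other strand that shares 464 exon bases with GLUD1, did not pass either (-0.12, limma adjusted p = 0.216).

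The 3 aminotransferases of alanine and aspartate moved in different directions. GPT2 (ENSG00000166123.14, chromosome 16, 46884362 to 46931289), which makes alanine and α-ketoglutarate from pyruvate and glutamate in mitochondria, had 984, 1112 and 1040 normalized counts in control and 1630, 1700 and 1728 in low glucose. Every low-glucose library exceeded every control library, and the mean rose from 1046 ± 64.2 to 1686 ± 50.9 (SD, n = 3), or by 61.3%. The log2 fold change was 0.69 (limma adjusted p = 1.30e-05, standard error 0.0769), and GPT2 passed in all 15 alternatives.

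GOT1 (ENSG00000120053.12, chromosome 10, 99396870 to 99430624), the cytosolic aspartate aminotransferase, had 978, 1073 and 1093 normalized counts in control and 1403, 1360 and 1262 in low glucose. The conditions did not overlap, with a log2 fold change of 0.36 (limma adjusted p = 0.00350, standard error 0.0799). Of the 15 alternatives, this call was lost in 1, the variance model with no trend with mean expression (adjusted p = 0.0555, range 0.000116 to 0.0555 over the 15 alternatives).

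GOT2 (ENSG00000125166.13, chromosome 16, 58707131 to 58734342), the mitochondrial aspartate aminotransferase and a part of the malate-aspartate shuttle with GOT1, went the other way. Its normalized count was 3091, 3472 and 3133 in control and 2519, 2603 and 2591 in low glucose. It fell by 0.33 on the log2 scale (limma adjusted p = 0.00387, standard error 0.0746). The fall did not pass after quantile normalization (-0.17, adjusted p = 0.0835) or without the variance trend (adjusted p = 0.0577, range 0.000426 to 0.0835). ENSG00000245768, a lncRNA on the other strand that shares 162 exon bases with GOT2, fell as well, from a mean of 375 to 276 (-0.44, limma adjusted p = 0.0105). The library kit kept strand, but the strand setting of the counting is not stated, so reads in the shared bases may belong to either gene.

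ASNS (ENSG00000070669.17, chromosome 7, 97851677 to 97872542), whose upstream window with TGATGAAA is printed above, had the largest fold change of the 9 and one of the lowest levels. Its normalized count was 69.5, 68.0 and 94.2 in control and 174, 162 and 154 in low glucose, with 61 to 88 reads behind each control value and 164 to 203 behind each low-glucose value. The lowest low-glucose value was well above the highest control value, and the mean went from 77.2 ± 14.7 to 163 ± 10.2 (SD, n = 3), 2.11-fold. The log2 fold change was 1.09 (95% interval 0.75 to 1.42, standard error 0.157, limma adjusted p = 0.000120), and it lay between 0.97 and 1.23 over the 15 alternatives, past the threshold in all of them. ENSG00000284707, a lncRNA on the same strand, covers 2415 of the 4896 exon bases of ASNS (49.3%). Its reads numbered 0 to 2 in the control libraries and 7 to 8 in those of low glucose, and it is named after its values were seen. How reads in the shared bases were assigned is not stated, and their part in the low count of ASNS was not tested.

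Along the route to proline, the first and the last enzyme moved in opposite directions. ALDH18A1 (ENSG00000059573.9, chromosome 10, 95605941 to 95656711), the P5C synthase that commits glutamate to proline and ornithine, had 1581, 1661 and 1466 normalized counts in control and 1266, 1259 and 1356 in low glucose. The values did not overlap, and the log2 fold change was -0.28 (limma adjusted p = 0.0141, standard error 0.0778). This was the least stable of the 6 calls, lost in 6 of the 15 alternatives. It was lost with library size scaling (adjusted p = 0.0597), quantile normalization (-0.09, adjusted p = 0.378) and no variance trend (adjusted p = 0.0949). It was also lost without the control library of 9741183 reads (adjusted p = 0.0580), without low glucose replicate 1 (adjusted p = 0.0765) or without low glucose replicate 2 (adjusted p = 0.0812).

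PYCR1 (ENSG00000183010.17, chromosome 17, 81932384 to 81942412), a mitochondrial P5C reductase, had 1697, 1709 and 1856 normalized counts in control and 2968, 2880 and 2634 in low glucose. Its mean rose by 61.2%, from 1754 ± 88.7 to 2827 ± 173 (SD, n = 3). The log2 fold change was 0.69 (limma adjusted p = 1.38e-05, standard error 0.0773), past the threshold in all 15 alternatives. ENSG00000263585, a lncRNA on the other strand with 450 shared exon bases, rose by a like amount (0.68, limma adjusted p = 2.29e-05), from a mean of 670 to 1074. Because the strand setting of the counting is not stated, reads in those bases may belong to either gene.

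OAT (ENSG00000065154.11, chromosome 10, 124397303 to 124418976), which links ornithine to P5C in mitochondria, had 1932, 1560 and 1856 normalized counts in control and 1598, 1632 and 1688 in low glucose. The control library of 10126218 reads, with 1560, lay below all low-glucose libraries, whereas the other 2 controls lay above them. The log2 fold change of -0.12 did not pass (95% interval -0.30 to 0.07, limma adjusted p = 0.345). Without that control library it was -0.21 (limma adjusted p = 0.0111), and after quantile normalization it was 0.093.

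**Figure D2:**
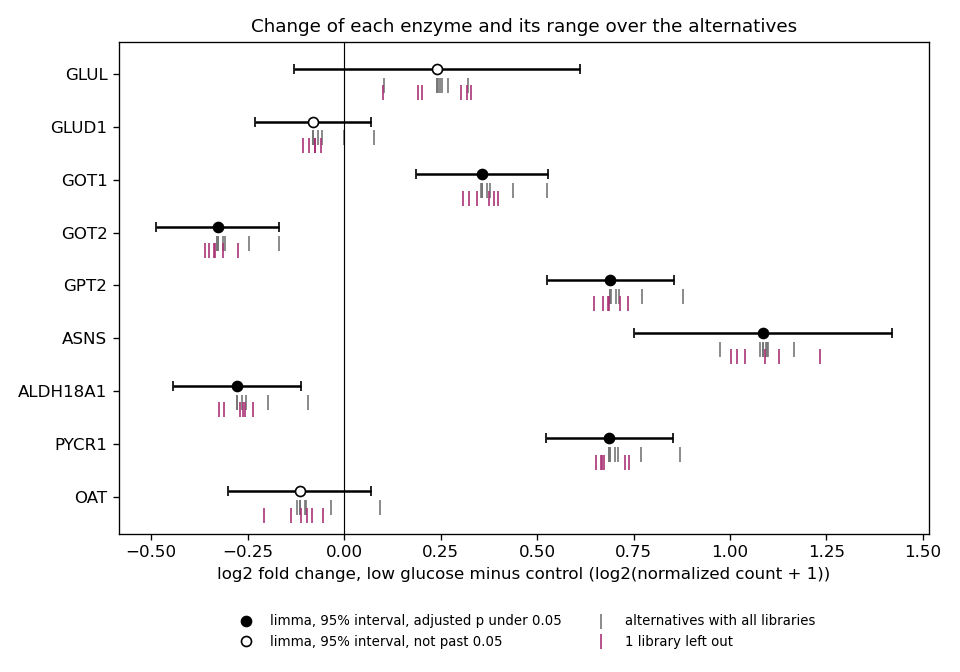
Log2 fold change of each enzyme (low glucose minus control) with its 95% interval from limma. Filled points have an adjusted p under 0.05, grey ticks are alternatives that kept all libraries, and purple ticks leave out 1 library. ASNS, GPT2, PYCR1 and GOT1 stay to the right of 0 and GOT2 and ALDH18A1 to the left, whereas GLUD1 and OAT have ticks on both sides.

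Because a ratio of 2 genes within a library is free of the scaling between libraries, ratios within the set were compared, with levels as TPM and tests on the log2 ratio of normalized counts. With 3 libraries against 3, the exact permutation test cannot give less than p = 0.1 (two-sided, 20 splits), and p-values were also adjusted over the 6 ratios tested, of which 4 are given. GOT1 had 0.489, 0.478 and 0.540 times the level of GOT2 in control and 0.861, 0.809 and 0.754 times in low glucose. The ratio was thus 1.61-fold higher under low glucose, a log2 difference of 0.68 (exact permutation p = 0.1, adjusted 0.2). Limma fitted to the 6 ratios gave an adjusted p of 0.000531. That fit pools the spread of the 6 ratios, which share genes and libraries, so its p-values may be too small. PYCR1 stood at 1.40, 1.34 and 1.65 times ALDH18A1 in control and at 3.05, 2.98 and 2.53 times in low glucose. Here the log2 difference was 0.96, or 1.95-fold (exact permutation p = 0.1, adjusted 0.2), with an adjusted p of 2.96e-05 from limma. ASNS relative to GLUL, the 2 amidating enzymes of the set, went from 2.50, 2.02 and 3.34 to 5.50, 3.78 and 4.76, a log2 difference of 0.84 (exact permutation p = 0.1, adjusted 0.2), with an adjusted p of 0.000463 from limma. On normalized counts, without division by length, the mean log2 ratio of ASNS to GLUL was -0.009 in control and 0.83 in low glucose. These 3 ratios showed no overlap between the conditions, and all 3 lay higher in low glucose. OAT to ALDH18A1, the 2 entries to P5C, stood at 1.36, 1.04 and 1.41 in control and at 1.40, 1.44 and 1.38 in low glucose. These values overlapped, and the log2 difference was 0.16 (exact permutation p = 0.3, adjusted 0.36).

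**Figure D3:**
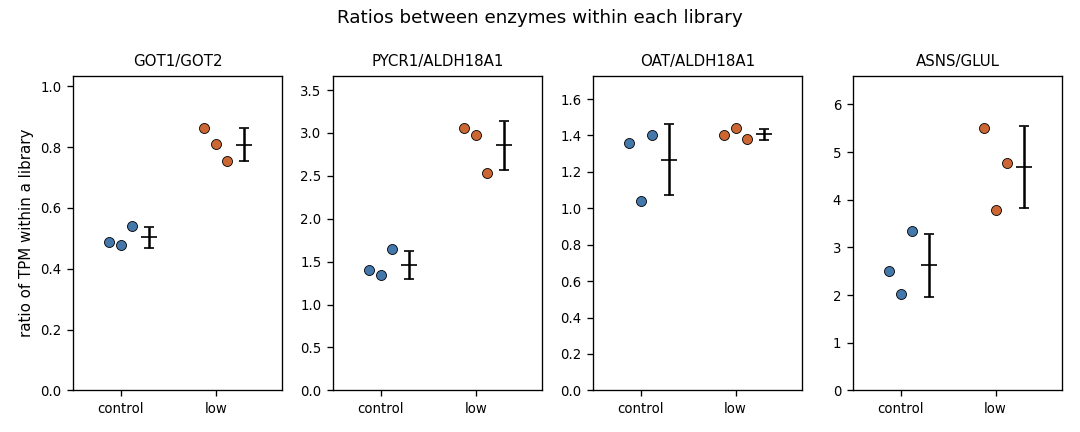
Ratio of TPM between 2 enzymes within each library (linear axes from 0), with the mean and SD beside the points of the 3 control and 3 low-glucose libraries. GOT1/GOT2, PYCR1/ALDH18A1 and ASNS/GLUL are higher in every low-glucose library than in any control library, and OAT/ALDH18A1 overlaps.

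Per length, the 9 enzymes spanned a wide range. TPM was computed from the recovered reads and the union of annotated exons, which understates genes with many long isoforms such as GLUD1 (14283 exon bases) and GLUL (12638). In control the order was GOT2 (249 to 277 TPM), PYCR1 (177 to 192), OAT (138 to 175), GOT1 (124 to 135), ALDH18A1 (116 to 132), GLUD1 (62.5 to 65.5), GPT2 (47.5 to 52.4), ASNS (4.16 to 5.74) and GLUL (1.72 to 2.06). The neighbours GOT1 and ALDH18A1 overlapped in this order. In low glucose PYCR1 came first (266 to 298 TPM), above GOT2 (195 to 201), GOT1 (152 to 168) came before OAT (137 to 145), and GPT2 (74.2 to 79.2) came before GLUD1 (56.5 to 60.6), with no overlap between any of these neighbours. ASNS (9.15 to 10.3 TPM) and GLUL (1.88 to 2.50) remained the lowest pair.

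GLS2, a mitochondrial glutaminase best known from liver, had 17.9, 20.1 and 22.5 normalized counts in control and 33.7, 36.6 and 34.9 in low glucose, a rise of 0.77 (limma adjusted p = 0.0310) that rests on 16 to 46 reads per library and was lost in 7 of the 15 alternatives. GPT, the cytosolic alanine aminotransferase, had 10 to 20 reads in control libraries, 26 to 35 in low-glucose libraries, and a log2 fold change of 0.83 that missed the threshold (limma adjusted p = 0.0578). For GLUD2 there were at most 12 reads in any library (0.10, limma adjusted p = 0.909), and GOT1L1 had no read. PYCR3, which acts in the cytosol, fell by 0.46 (limma adjusted p = 0.0138). It stayed lower in the 15 alternatives (-0.58 to -0.35), but the call was lost when the low-glucose library of 13733477 reads was omitted and when the variance model had no trend. Pseudogenes took few reads, at most 36 in a library for those of GLUD1, 3 for those of GOT2 and 0 for those of ASNS and GLUL.

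Around the 9 enzymes, 7 pathway lists with 78 genes were counted. Of the 68 tested, 16 rose and 17 fell (48.5% called, against 30.9% of all genes tested), with a median log2 fold change of 0.11 against 0.05 over all genes. The values over all genes were not matched for level. Each list count below stands against 14.7% of all genes called higher and 16.2% called lower, and lists of this size are described by counts alone. The split was 22 and 11 with scaling by library size and 23 and 10 after quantile normalization. Of the 33 that passed, 16 passed in all 15 alternatives, 10 of them higher and 6 lower, and none of the 33 changed direction there. With a minimum size of 1 for the log2 fold change, 4 remained, all higher (GFPT1, BCAT1, ASS1 and SLC7A11). Exons shared with other genes were looked up for the 9 enzymes only.

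Among 11 genes that use glutamine, 3 rose and 4 fell (median -0.00). GFPT1, which opens the hexosamine pathway, rose by 1.34 from 503 to 1278 normalized counts (limma adjusted p = 4.56e-08). CTPS1 and GMPS, amidotransferases of CTP and GMP synthesis, each fell by 0.41, with limma adjusted p-values of 0.000940 and 0.00250. The second lost its call without the variance trend (0.0633). Of 11 tested genes of glutamate and transamination, 2 rose and 2 fell (median 0.505). That median is the value of a gene with 21 to 72 reads that did not pass (limma adjusted p = 0.146). The genes above it include some with at most 8 reads in a library, which did not pass either. BCAT1, the cytosolic branched-chain aminotransferase, rose by 1.12 and PSAT1 of serine synthesis by 0.73, both in all 15 alternatives. OGDH, a subunit of the complex that oxidizes α-ketoglutarate, and BCAT2 fell by 0.27 and 0.26, and each call was lost in 7 of the 15 alternatives.

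In the list on asparagine and aspartate, 4 of 9 tested genes rose and 2 fell (median 0.20). ASS1, which joins aspartate to citrulline, had 177, 185 and 155 normalized counts in control and 609, 608 and 559 in low glucose. This was the largest rise among the genes of the lists that passed, at 1.78 (limma adjusted p = 3.11e-08, standard error 0.102). ASL, the next enzyme of that route, rose by 0.55. ADSS2, which uses aspartate to make adenylosuccinate, fell by 0.25, a call that was lost in 13 of the 15 alternatives. The asparaginase gene ASPG had 1 read in all.

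Of 9 tested genes of proline synthesis, breakdown and use, 2 rose and 1 fell (median 0.20). The 2 that rose were P4HA1 (0.36) and P4HA2 (0.33), subunits of collagen prolyl hydroxylase, whose calls were lost in 3 and 6 of the 15 alternatives, and the 1 that fell was PYCR3. PRODH, which starts proline breakdown, had at most 1 read in a control library and 2 to 6 in a low-glucose library (limma adjusted p = 0.138), and PRODH2 had none. ASPG, PRODH and PRODH2 are named outside the rule, after their values were seen. Among 8 tested genes of ornithine, arginine and polyamines, 1 rose and 4 fell (median -0.18). ODC1, the first enzyme of polyamine synthesis, fell by 0.55 from 4763 to 3248 normalized counts (limma adjusted p = 5.10e-05), and the mitochondrial ornithine carrier SLC25A15 fell by 0.40, both in all 15 alternatives. ARG2, the mitochondrial arginase that makes ornithine, rose by 0.33, a call lost in 4 of the 15 alternatives.

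Of 9 genes of the malate-aspartate shuttle and mitochondrial carriers, 2 fell and none rose (median -0.16). The share called, 22.2%, was below the 30.9% of all genes tested. SLC25A13, an aspartate/glutamate carrier, fell by 0.51 (limma adjusted p = 0.00128) in all 15 alternatives, and the glutamate carrier SLC25A22 by 0.34 (limma adjusted p = 0.0140), which was lost in 4. GOT2 moved in the same direction and GOT1 in the other. Of 11 tested plasma membrane carriers, 4 rose and 2 fell (median 0.40). SLC7A11, which exports glutamate for cystine, rose by 1.31, and its partner subunit SLC3A2 by 0.85. SLC36A1 and SLC36A4, carriers of small neutral amino acids that include proline, fell by 0.66 and 0.54, and all 4 passed in all 15 alternatives. That the amount of cystine in the low-glucose medium is not stated touches SLC7A11 and SLC3A2 directly.

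**Figure D4:**
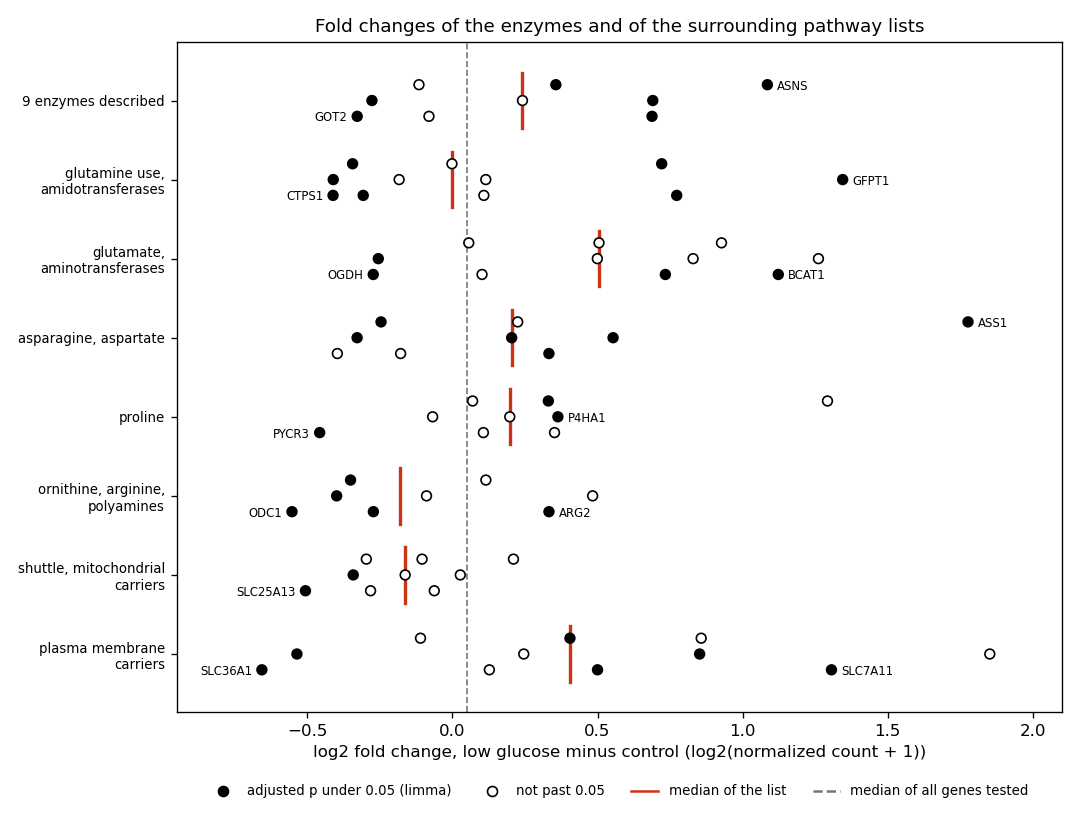
Log2 fold change (low glucose minus control) of each tested gene, for the 9 enzymes and for the 7 surrounding lists. Filled points have a limma adjusted p under 0.05, red bars are list medians, and the dashed line is the median of all genes tested (0.05). Every list but that of the shuttle and mitochondrial carriers has filled points on both sides of 0.

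By the root mean square difference of log2 values centred over the 6 libraries, over the 10141 genes whose mean reached 100, the patterns most like that of ASNS were MOSPD2 (0.0453), HEMK1 (0.0619) and TMEM50B (0.0773). Their log2 fold changes were 1.06, 1.18 and 1.10. For GOT2, the enzyme with the largest fall, they were ENSG00000245748 (0.0176), PFAS (0.0195) and SLC6A8 (0.0198), with log2 fold changes of -0.32, -0.34 and -0.30. PFAS, a glutamine amidotransferase of purine synthesis, is also in the list of genes that use glutamine.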

How the data were processed

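RNA-seq of MiaPaCa-2 cells in 2 conditions (3 libraries each) was analysed from 1 table. Per the paper's methods and the submitters' processing notes, reads were trimmed with Trim Galore, mapped to hg38 with STAR 2.7.0e, and compared with DESeq2. RSEM is among the software the paper lists, but which tool counted these reads, its strand setting and the annotation are not given in the sources used here. The deposited signal is reads per gene after division by a size factor per library. Dividing by the worth of 1 read gave whole numbers (tolerance 0.001) for 100% of values in all libraries, so that reads were recovered, and recomputed median-of-ratios factors over 17906 genes matched. Identifiers were matched to Gencode v44 (99.4%).

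Genes with a mean of at least 1 (21101) were tested on log2(value + 1), which understates changes of genes with few reads, with limma 3.58.1 in R 4.3.3 (lmFit, eBayes with trend, two-sided, Benjamini-Hochberg). The planned design foresaw counts or normalized values, and the branch for normalized values was used. Alternatives were library size, TMM and quantile scaling, no filter, a mean of at least 5, a pseudocount of 0.1, no variance trend, edgeR 4.0.16 (6554 genes called) and DESeq2 1.42.0 (5486) on recovered reads, a minimum size of 1 for the log2 fold change, and fits that omit each library. On simulated reads with 200 changed genes, limma recovered 175 (20610 genes tested, 6 false among 181 calls), edgeR 181 and DESeq2 173. The simulation gave all genes and both conditions the same dispersion, and far fewer genes changed in it than passed here. Its changes were larger than those of GOT1, GOT2 and ALDH18A1, so it does not test those calls. The members, gene lists and tests were chosen with earlier results of these data known. Genes were named by rule: all members, related enzymes, up to 2 genes per list and direction with the largest change past the threshold, the 3 nearest patterns of the enzymes with the largest rise and fall, opposite-strand genes that share exon bases with a member, and pseudogenes of the members. Some genes and 2 ratios that the rule named are not reported here. Promoters come from RefSeq (GRCh38.p14). Summaries used Python 3.11.15 (pandas 2.3.3, numpy 2.4.6) and plots matplotlib 3.10.9. P-values measure the spread between these libraries. For limma on genes this spread is moderated toward a trend over all genes tested, and for limma on the ratios it is pooled over the ratios.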

Additional observations from a re-analysis of the deposited data

How the results depend on the processing

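No paired analysis was possible because the labels tie only 2 of the 6 columns to a numbered replicate. The number of the 9 enzymes past the threshold was 3 without the variance trend (ASNS, GPT2 and PYCR1) and 1 with a minimum size of 1 for the log2 fold change (ASNS, against 6.6% of all genes tested). It was 5 to 7 with 1 library left out. For the genes of the pathway lists, 33 in the reported fit, it was 19 and 4 in the same 2 alternatives. Over all genes it was 4090 and 1392 against 6528, and 4319 to 7251 with 1 library left out, the fewest without low glucose replicate 1.

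GLUD1 (0.078) and OAT (0.093) changed direction after quantile normalization, neither past the threshold. Fitted with limma in place of the exact permutation test, the ratios GOT1/GOT2 (0.68), PYCR1/ALDH18A1 (0.96) and ASNS/GLUL (0.84) passed, which the permutation test cannot do at this size. The limma fit pools the spread of ratios that share genes and libraries, so its p-values may be too small. ASNS, GPT2 and PYCR1 kept their direction and their call in the 15 alternatives that set no minimum fold change, and of these 3 ASNS alone also passed with the minimum of 1. Genes with few reads, such as GLUL, GLS2, GPT and PRODH, are limited by depth.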
